A study of Mus musculus with 26 samples.

Results

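The 10 transcription factors that act early in the B lineage, Ebf1, Pax5, Lef1, Bach2, Erg, Ets1, Sox4, Bcl11a, Runx1 and Myb, were followed by gene symbol through both RNA-seq tables of a study of Brg1 in cultured mouse pro-B cells. All 10 were listed, among 19404 genes in the table of Brg1 deletion and 19719 in the table of Brg1 knockdown. Brg1, encoded by Smarca4, is the ATPase of the SWI/SNF chromatin remodelling complexes. The Brg1-deleted group (2 libraries, Brg1F/F x ER-Cre) and its control group (2 libraries, Brg1+/+ x ER-Cre) were both given 0.3 µM tamoxifen, which activates ER-Cre, for the last 60 hours of a 7-day culture of B220+ bone marrow cells in IL7 and SCF. All groups were of the C57/Bl6 strain. The Brg1 shRNA group (3 libraries) and the control shRNA group (3 libraries) were both Rag1-/-, so neither can rearrange antigen receptor genes. They were grown in the same cytokines, infected with retrovirus on days 3 and 4 and enriched for infected cells with hCD25 beads 2 days later. Whether replicate libraries stem from different mice is not stated in the sources used here, so p-values measure only the spread between these libraries, which in the knockdown experiment may be technical.

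These factors build and hold B cell identity in steps. Runx1, Myb and E proteins act in lymphoid progenitors, Ebf1 then opens B lineage enhancers and turns on Pax5, and Pax5 fixes the choice by activating B cell genes and silencing those of other lineages. Brg1 is known to work with such factors at enhancers in lymphoid cells. The comparisons give the transcript levels of the factors themselves in pro-B cells with less Brg1.

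Smarca4 had an authors' mean of 6067 normalized reads in the Brg1-deleted group and 17898 in controls, and of 6743 in the Brg1 shRNA group and 13340 in control shRNA cells. It fell 2.95-fold after deletion (adjusted p = 0.0008, DESeq) and 1.98-fold after knockdown (adjusted p = 0.0472, DESeq) in the authors' deposited table. Libraries held about 8700000 to 11700000 reads in the deletion experiment and 5200000 to 11100000 in the knockdown experiment, estimated from the weight of a read. All 8 pro-B cell markers searched were listed in both experiments, with a summed level per 1000000 listed reads of 6264 in Brg1-deleted cells and 3753 in controls, and of 4623 in Brg1 shRNA cells and 3796 in control shRNA cells.

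None of the 10 factors passed an adjusted p of 0.05 in either experiment of the authors' deposited table. The authors' deposited table calls 1.47% of all listed genes after deletion and 0.218% after knockdown (2.77% and 0.391% of genes with a mean of at least 1000), so a count of 0 among 10 is near the background and no result about the factors. In both experiments Sox4, Bach2, Ets1, Myb and Pax5 had log2 fold changes above 0, Ebf1 lay close to 0, and Lef1 and Erg lay below 0. At an unadjusted p under 0.05, Sox4, Bach2 and Erg passed after deletion, 3 of 10, against 9.52% of all listed genes (4.23% higher and 5.29% lower) and 18.1% of the 2531 genes with a mean of at least 1000, the range in which all 10 lie. After knockdown 0 of 10 passed at that level in the authors' deposited table, against 2.74% of listed genes and 4.01% of those with a mean of at least 1000.

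**Figure D1:**
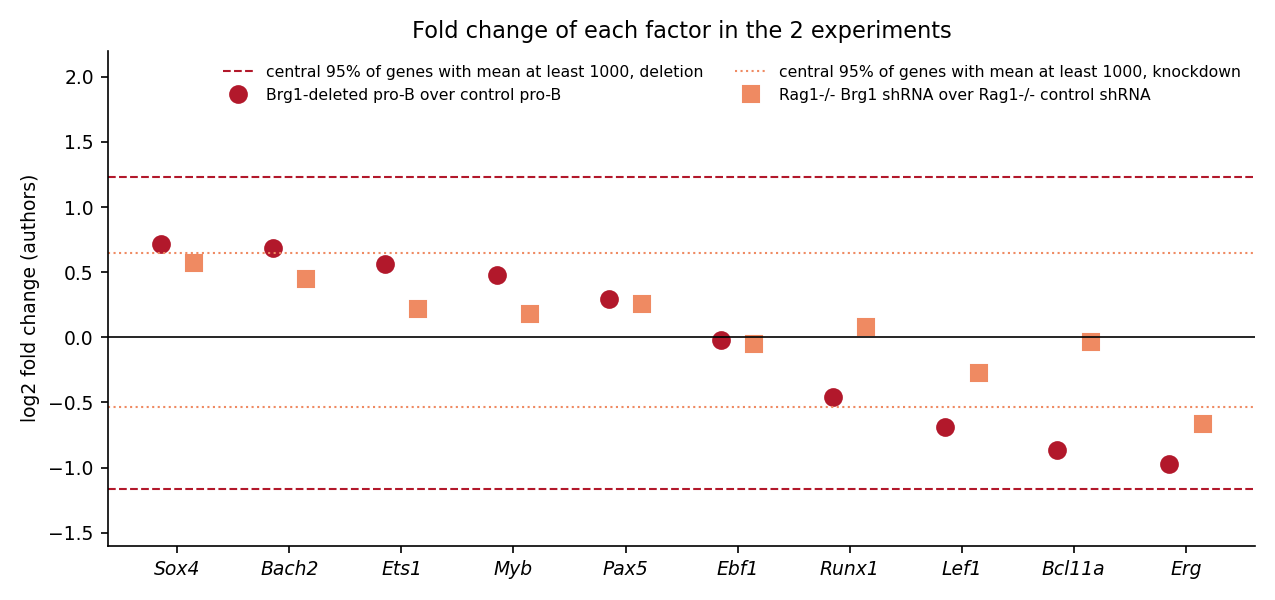
Log2 fold change (y axis, no unit, the authors' values) of each factor (x axis, ordered by the deletion value) in Brg1-deleted over control pro-B cells (circles) and in Rag1-/- Brg1 shRNA over control shRNA cells (squares). The lines bound the central 95% of genes with a mean of at least 1000 normalized reads, -1.16 to 1.23 in the deletion experiment (dashed) and -0.54 to 0.65 in the knockdown experiment (dotted). All points lie inside their own lines but Erg on knockdown, at -0.66.

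The 250 bases before the transcription start are shown for 4 factors that mark the ends and the middle of that order, or whose values could be read in each library: Erg, Runx1, Ebf1 and Sox4. They are the RefSeq windows (GRCm38.p6, the same coordinates as mm10) whose start lies nearest to the 5′ end of the gene in the authors' table, written 5′ to 3′ on the strand of the gene. Capitals mark exact matches, on either strand, to letters bound by the factors' own families or by E proteins. The family runs were TGTGGT for RUNX, CCGGAA for ETS, CTTTGA for TCF/LEF, TAACNG for MYB and TGAGTCA for BACH. CTTTGT was used for SOX and shares its first 5 letters with the TCF/LEF run. CAGNTG was used for E-boxes, the sites of E proteins, and none of the factors followed here is an E protein. The palindrome of EBF was searched too. The RefSeq start of Ebf1 lies 783 bases inside the authors' gene, and those of Erg, Runx1 and Sox4 lie within 14 bases of its 5′ end.
Erg, chr16:95586594-95586843, minus strand: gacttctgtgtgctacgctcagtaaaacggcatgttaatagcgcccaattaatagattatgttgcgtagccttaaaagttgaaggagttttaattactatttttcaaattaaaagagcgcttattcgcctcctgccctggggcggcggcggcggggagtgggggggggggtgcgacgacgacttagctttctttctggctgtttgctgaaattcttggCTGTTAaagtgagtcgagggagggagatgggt
Runx1, chr16:92826075-92826324, minus strand: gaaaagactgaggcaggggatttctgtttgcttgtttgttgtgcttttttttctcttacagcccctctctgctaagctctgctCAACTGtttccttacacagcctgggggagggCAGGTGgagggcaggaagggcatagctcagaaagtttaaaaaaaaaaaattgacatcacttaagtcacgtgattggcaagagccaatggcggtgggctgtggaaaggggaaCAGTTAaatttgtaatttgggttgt
Ebf1, chr11:44617850-44618099, plus strand: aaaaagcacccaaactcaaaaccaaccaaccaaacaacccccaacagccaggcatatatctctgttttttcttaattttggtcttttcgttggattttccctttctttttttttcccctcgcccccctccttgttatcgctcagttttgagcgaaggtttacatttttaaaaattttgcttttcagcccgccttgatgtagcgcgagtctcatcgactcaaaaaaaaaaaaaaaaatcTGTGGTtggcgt
Sox4, chr13:28953700-28953949, minus strand: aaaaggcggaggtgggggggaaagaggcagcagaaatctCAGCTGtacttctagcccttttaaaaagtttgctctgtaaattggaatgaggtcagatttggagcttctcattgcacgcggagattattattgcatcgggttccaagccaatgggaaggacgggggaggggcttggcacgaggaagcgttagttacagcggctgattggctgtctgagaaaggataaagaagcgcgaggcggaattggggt
The Ebf1 window held a RUNX match whose first base lies 12 bases before the start, where 14% of all 32851 windows hold one. The Erg window held a MYB match 32 bases before the start and the Runx1 window one 25 bases before it, against 19.8% of windows. Runx1 also had E-box matches 167 and 136 bases before the start, and Sox4 one 211 bases before it, against 44.8%. A match is only a run of letters, and none of these windows held an EBF match, which 0.779% of all windows do. In the nearest window of each of the 9 factors that have one (all but Ets1), 1 had a RUNX match, 3 had a MYB match and 2 had an E-box match. The nearest window of Bach2, whose start lies 178631 bases inside the authors' gene, had an ETS match (12% of all windows) and a TCF/LEF match (13.8%). No nearest window had a SOX match (16.5%) or a BACH match (4.46%). Windows at other starts of these genes held further matches, an E-box for Erg and Lef1, an ETS run for Runx1, and TCF/LEF and SOX runs for Lef1.

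Per length, Myb was the most abundant of the 10 in each of the 4 groups and Pax5 came next. Myb, which keeps progenitors cycling, stood at 246 normalized reads per kb of exon per 1000000 listed reads in Brg1-deleted cells and 172 in controls, and at 180 in Brg1 shRNA cells and 154 in control shRNA cells. Pax5 stood at 174 in Brg1-deleted cells and 139 in controls on that scale, and at 131 in Brg1 shRNA cells and 106 in control shRNA cells. At the other end were Runx1 and Bcl11a, between 18.8 and 33.3 in the 4 groups. All 10 were abundant transcripts, at or above percentile 93.0 of the mean level in each table. In the knockdown experiment the order shifted most for Erg, the seventh of the 10 in Brg1 shRNA cells with 46.5 and the third in control shRNA cells with 71.4. In the deletion experiment Erg was the seventh in Brg1-deleted cells with 36.4 and the fifth in controls with 69.8, and Ebf1, Ets1 and Bach2 shifted by as many places. The tables give no value per library for most factors, so it cannot be said which neighbours in this order differ beyond their spread. Each table was normalized on its own.

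**Figure D2:**
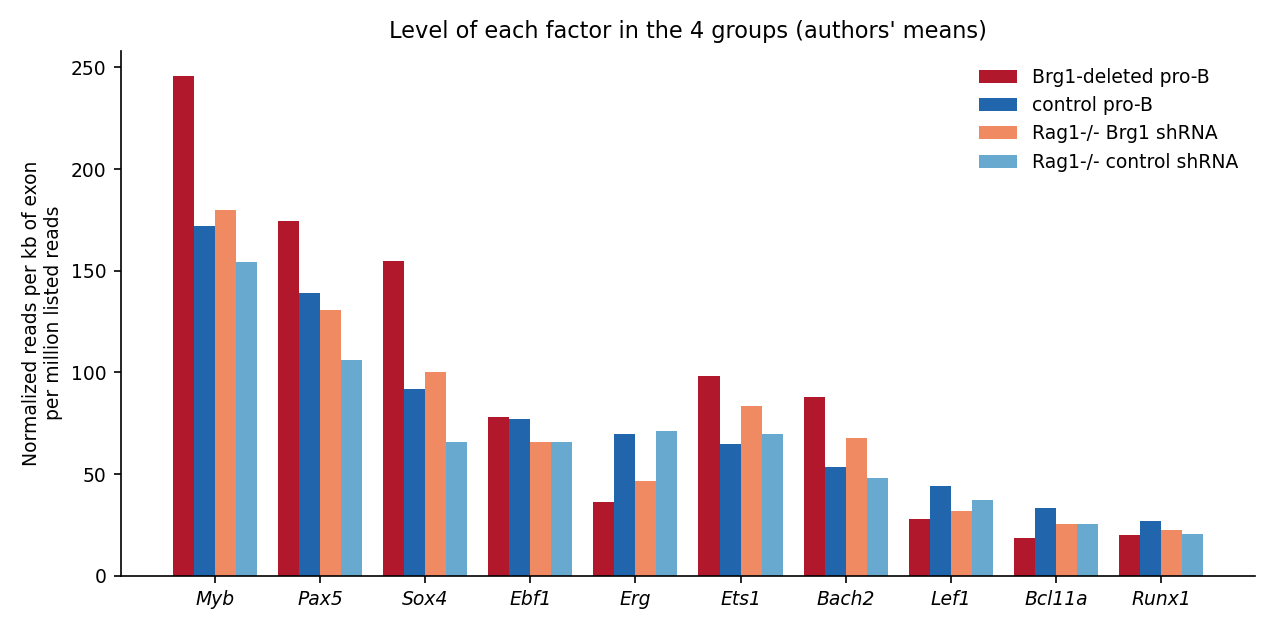
Level of each factor as normalized reads per kb of exon per 1000000 listed reads (y axis) in Brg1-deleted, control, Rag1-/- Brg1 shRNA and Rag1-/- control shRNA pro-B cells (bars from left to right, authors' group means without error bars, since the tables give none). Myb is the highest bar in every group, at 154 to 246, and Erg stands at 36.4 and 46.5 in the Brg1-depleted groups against 69.8 and 71.4 in their controls.

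Ebf1 and Pax5, the pair that specify and commit the lineage, were not called in either experiment. Ebf1 (ENSMUSG00000057098, mm10 chromosome 11, 44617317 to 45008091) had an authors' mean of 7690 in Brg1-deleted cells and 7809 in controls, a log2 fold change of -0.02 (unadjusted p = 0.9412) in the authors' deposited table. In Rag1-/- cells it had 5514 with the Brg1 shRNA and 5715 with the control shRNA, a log2 fold change of -0.05 (unadjusted p = 0.9173) in the authors' deposited table. Pax5 (ENSMUSG00000014030, chromosome 4, 44531145 to 44711446) had an authors' mean of 6037 in Brg1-deleted cells and 4933 in controls, and of 3847 in Brg1 shRNA cells and 3223 in control shRNA cells. Its log2 fold changes of 0.29 and 0.26 were close to each other, and the authors' deposited table lists both at an adjusted p of 1. A p that misses the threshold does not show that these transcripts were unaffected, and the tables carry no error from which an interval could be made.

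Many genes had values like those of Ebf1 or Pax5. Among 9456 genes above the median level in both tables, 173 lay within 0.05 of Ebf1 in the plane of both log2 fold changes, and the nearest were Ubxn4, Mvb12a and Akirin1, at distances of 0.0043 to 0.0063. For Pax5, 78 genes lay as near, led by Zfp652, Rgp1 and Large, at distances of 0.0060 to 0.0087. This likeness rests on 4 group means.

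Erg was the factor with the lowest log2 fold change in both experiments. Erg (ENSMUSG00000040732, chromosome 16, 95359169 to 95586593) is an ETS factor of stem and progenitor cells that is also active in early B cells. Its authors' mean was 1276 in Brg1-deleted cells and 2505 in controls, 49.1% lower, with a log2 fold change of -0.97 (unadjusted p = 0.0031, adjusted p = 0.1389) in the authors' deposited table. Each mean is a weighted sum of whole reads, and for Erg a single pair of library values gives it. Erg then stood at 1146 and 1406 normalized reads in the 2 Brg1-deleted libraries and at 2322 and 2689 in the 2 control libraries. The groups do not overlap, with the deleted libraries lower, as for 23.4% of the 16852 genes with a single solution and a mean of 1 or more, and for 28.9% of the 1558 that reach 1000. A limma fit on the recovered reads gave Erg a log2 fold change of -0.98 ± 0.18 (SE, n = 2 each, adjusted p = 0.132). In limma 16.8% of genes had an unadjusted p under 0.05 and 0% were called, against 0.249% without the shallower control library or 0.00593% without the deeper one. After knockdown the authors' mean was 1386 with the Brg1 shRNA and 2197 with the control shRNA, 36.9% lower, yet the unadjusted p in the authors' deposited table was 0.6164. Ets1, with a smaller log2 fold change of 0.21, had an unadjusted p of 0.3703 in the authors' deposited table.

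Runx1, the other factor with a single whole-read solution, is a core factor of blood progenitors and of the step that leads to Ebf1. Runx1 (ENSMUSG00000022952, chromosome 16, 92601467 to 92826066) stood at 1538 and 1463 normalized reads in the Brg1-deleted libraries and at 1904 and 2223 in the control libraries. Both deleted libraries were thus below both controls, as for 23.4% of the 16852 resolved genes and 28.9% of the 1558 with a mean of at least 1000. Its log2 fold change was -0.46 (unadjusted p = 0.1754) in the authors' deposited table and -0.46 ± 0.16 (SE, n = 2 each, adjusted p = 0.258) in limma. After knockdown it lay on the other side of 0, with authors' means of 1421 with the Brg1 shRNA and 1349 with the control shRNA and a log2 fold change of 0.08 in the authors' deposited table. The difference between the experiments was not tested, since the tables allow no joint fit.

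The calls of Erg and Runx1 in limma turned on how the libraries were paired. The labels number the libraries of both groups alike but do not say what a number marks, and the recovered libraries carry none, so either of 2 pairings could hold. With the deeper Brg1-deleted library paired with the shallower control library, Erg (adjusted p = 0.00744 in limma) and Runx1 (adjusted p = 0.0314 in limma) both passed, as did 17.2% of all genes in that fit. With the other pairing neither passed (adjusted p = 0.465 for Erg and 0.717 for Runx1 in limma), nor did any other gene of the fit, where 1433 had an unadjusted p under 0.05.

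Lef1 and Bcl11a also lay below 0 on deletion, but with libraries of at least 1 group far apart. Lef1 (ENSMUSG00000027985, chromosome 3, 131110471 to 131224356), an HMG-box factor of the Wnt pathway that supports pro-B cell survival, had an authors' mean of 2443 in Brg1-deleted cells and 3938 in controls, a log2 fold change of -0.69 (unadjusted p = 0.0623) in the authors' deposited table. Its Brg1-deleted libraries held 1548 and 3337 normalized reads. For the controls 2 pairs are possible, 3975 with 3900 or 5911 with 1964, and the groups are apart in the first and overlap in the second. After knockdown the Lef1 means were 2357 with the Brg1 shRNA and 2849 with the control shRNA, a log2 fold change of -0.27 in the authors' deposited table.

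Bcl11a (ENSMUSG00000000861, chromosome 11, 24078056 to 24174123) is a zinc finger repressor without which B cells do not form. Its authors' mean was 2499 in Brg1-deleted cells and 4545 in controls, a log2 fold change of -0.86 in the authors' deposited table. This was a larger difference than that of Lef1, yet its unadjusted p there was 0.3397. The Brg1-deleted libraries held 3747 and 1251 normalized reads, a 2.99-fold spread, and the controls either 3151 with 5939 or 1216 with 7875, so the groups overlap under every solution. In Rag1-/- cells the means were 2895 with the Brg1 shRNA and 2972 with the control shRNA, a log2 fold change of -0.04 in the authors' deposited table.

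The spread of these libraries was wide for genes of that level. Among genes with 1 solution and a mean of at least 1000, the higher library exceeded the lower by a median of 1.19-fold in the 1975 genes of the Brg1-deleted group, and 90% were under 1.71-fold. The Bcl11a controls also differ at least 1.885-fold, where 95% of the 1695 such genes of the control group were under 1.744-fold. The deeper Brg1-deleted library, low in Lef1 and high in Bcl11a, also held less Il7r, the IL-7 receptor chain of pro-B cells, at 651 against 2442 normalized reads in the shallower one. It held less Dntt, the terminal transferase of pro-B cells, at 81.2 against 592, and more macrophage markers, whose 7 members summed to 4220 against 1715. Neutrophil markers went the other way, with 8 resolved members that summed to 62.2 in the deeper and 665 in the shallower library. In the controls macrophage markers summed to 2263 in the deeper library and 6331 in the shallower one, and neutrophil markers to 1458 in the deeper and 888 in the shallower. Both sets of markers thus differed within each group. Their part in the values of Lef1 and Bcl11a was not tested.

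**Figure D3:**
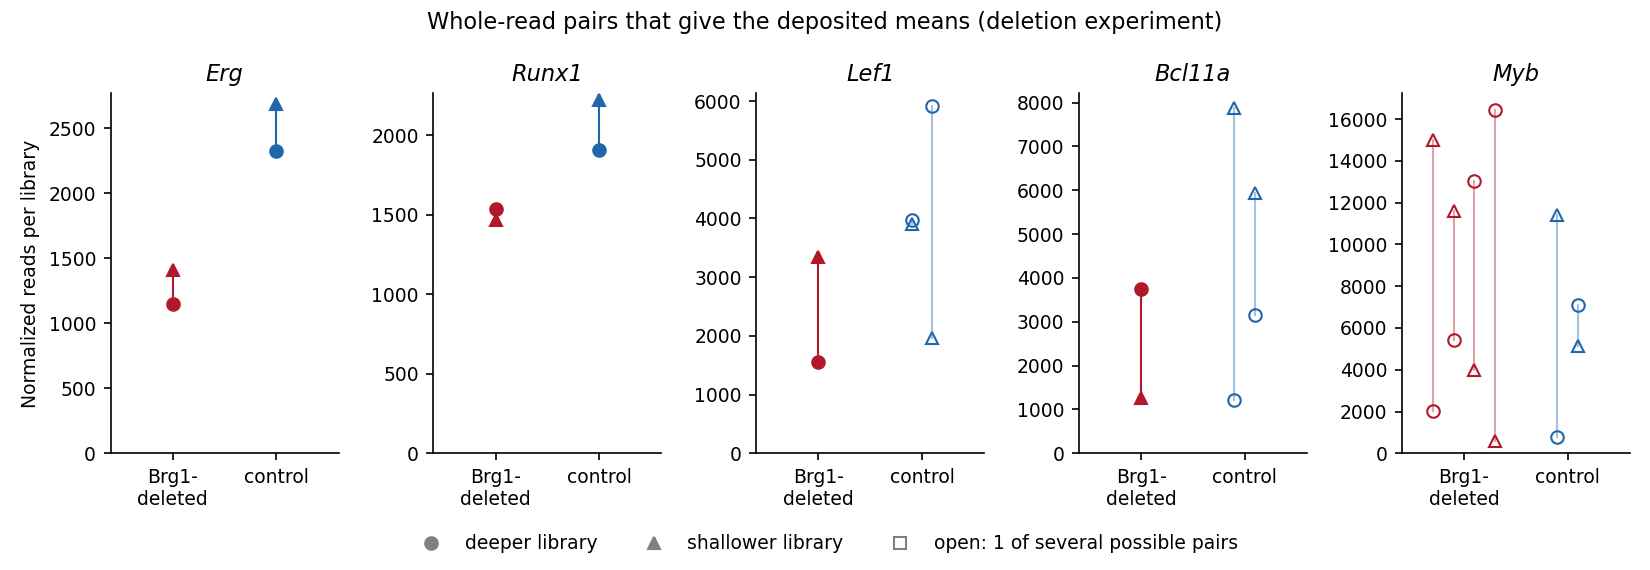
Normalized reads per library (y axis) for Erg, Runx1, Lef1, Bcl11a and Myb in Brg1-deleted (red, left) and control (blue, right) pro-B cells, with each pair of libraries joined by a line. Filled symbols are the single whole-read solution, open symbols 1 of several possible pairs. The groups are apart for Erg and Runx1 and overlap for Bcl11a and Myb under every pair.

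Sox4 and Bach2 had the highest log2 fold changes of the 10 in both experiments. Sox4 (ENSMUSG00000076431, chromosome 13, 28948919 to 28953713), an HMG-box factor needed for pro-B cell expansion, had an authors' mean of 7513 in Brg1-deleted cells and 4563 in controls, 64.7% higher (log2 fold change 0.72, unadjusted p = 0.0239, adjusted p = 0.4425) in the authors' deposited table. With the Brg1 shRNA its mean was 4143, against 2792 with the control shRNA, 48.4% higher (unadjusted p = 0.207) in the authors' deposited table. Bach2 (ENSMUSG00000040270, chromosome 4, 32238804 to 32586108) is a repressor that guards the pre-B cell checkpoint and later restrains plasma cell formation. Its authors' mean was 8839 in Brg1-deleted cells and 5486 in controls, a log2 fold change of 0.69 (unadjusted p = 0.0367, adjusted p = 0.5554) in the authors' deposited table. With the Brg1 shRNA it was 5779, against 4231 with the control shRNA, a log2 fold change of 0.45 in the authors' deposited table. Several whole-read pairs fit each of these means, and in 4 of 6 combinations for Sox4 and 6 of 8 for Bach2 the groups overlap, with the deleted libraries above both controls in the others, as for 24.7% of the 16852 genes with a single solution. Some of these pairs need libraries of 1 group to differ by 14.8-fold, where 95% of resolved genes in the Brg1-deleted group lie under 2.08-fold. Choosing the pair of smallest spread in each group itself favours groups that are apart wherever the means differ. The share of other genes that are apart under that choice was not computed, so it is no result about these factors. In those pairs the groups are apart. Sox4 then has 8278 and 6748 normalized reads in Brg1-deleted libraries, against 4313 and 4813 in controls. Bach2 then has 8721 and 8957 in Brg1-deleted libraries, against 5579 and 5393 in controls. This is not particular to Sox4 and Bach2. For Ets1 the pairs of smallest spread are 8343 and 8479 in Brg1-deleted libraries, against 6253 and 5107 in controls. For Pax5 they are 6678 and 5396 in Brg1-deleted libraries, against 4600 and 5266 in controls. Over all pairs the groups overlap in 7 of 9 combinations for Ets1 and in 5 of 6 for Pax5.

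Ets1 and Myb lay above 0 with smaller values. Ets1 (ENSMUSG00000032035, chromosome 9, 32636221 to 32757820), an ETS factor of developing lymphocytes, had an authors' mean of 8411 in Brg1-deleted cells and 5680 in controls, a log2 fold change of 0.57 (unadjusted p = 0.0856) in the authors' deposited table. With the Brg1 shRNA it was 6086, against 5245 with the control shRNA. Myb (ENSMUSG00000019982, chromosome 10, 21124930 to 21160984) had an authors' mean of 8505 in Brg1-deleted cells and 6101 in controls, a log2 fold change of 0.48 with an unadjusted p of 0.5403 in the authors' deposited table. Under each of its 4 whole-read pairs the Brg1-deleted libraries differ at least 2.14-fold in Myb, and the groups overlap in all 8 combinations. With the Brg1 shRNA the Myb mean was 5289, against 4680 with the control shRNA, a log2 fold change of 0.18 in the authors' deposited table.

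**Figure D4:**
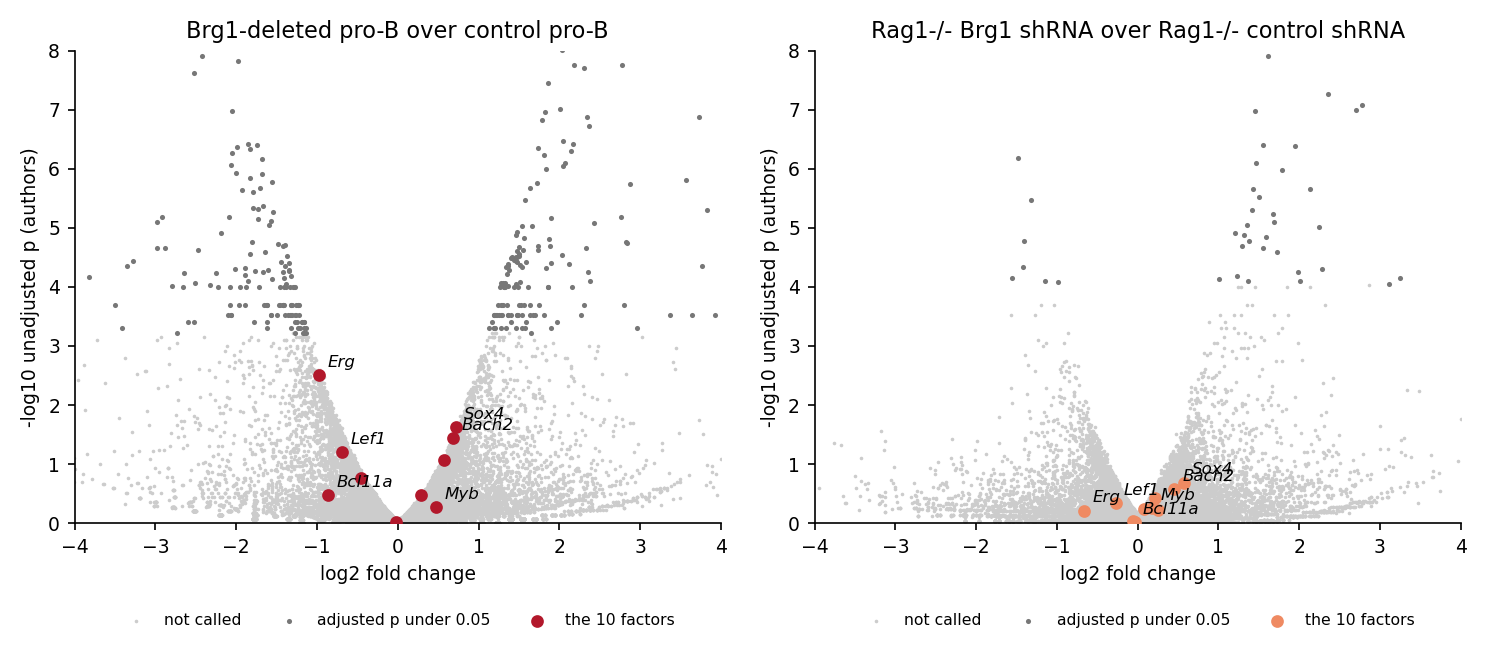
Log2 fold change (x axis) against -log10 of the authors' unadjusted p (y axis) for every listed gene in the deletion (left) and knockdown (right) experiments, with the 10 factors in colour. Erg is the highest coloured point after deletion, at an unadjusted p of 0.0031, and Bcl11a and Myb sit low for their fold change. Points beyond 4 on the x axis or 8 on the y axis are not shown.

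Factors that share a DNA-binding fold lay on opposite sides of 0. The ratio of Ets1 to Erg, both ETS factors, was 2.70 per length in Brg1-deleted cells and 0.927 in controls, and 1.80 in Brg1 shRNA cells and 0.976 in control shRNA cells. The ratio of Sox4 to Lef1, both HMG-box factors, was 5.55 in Brg1-deleted cells and 2.09 in controls, and 3.17 in Brg1 shRNA cells and 1.77 in control shRNA cells. The pairs were picked after their values were seen, and no test was made of them. The ratio of Pax5 to Ebf1 was 2.24 in Brg1-deleted cells and 1.80 in controls.

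The experiments have no library in common, so their values can be set side by side. Of the 10 factors 9 had the same sign in both, all but Runx1, where 71.9% of the 17846 genes in both tables did and 85.5% of the 1966 with a mean of at least 1000 in both. Ebf1 and Bcl11a lie so close to 0 in 1 experiment each that rescaling the means to the same sum turns their sign there, to 0.013 for Ebf1 on deletion and 0.0069 for Bcl11a on knockdown. The size of the knockdown value was the smaller in 9 of 10, all but Ebf1, against 81.5% of genes of that level. Both shares are near those of other abundant genes. The median log2 fold change of the factors was 0.14 after deletion and 0.13 after knockdown, where that of all listed genes was -0.001 after deletion and -0.003 after knockdown.

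Of the factors 8 carry a mark of the authors named confounded, as do 47.1% of all genes in the deletion table. No source used here defines it, but 78.3% of marked genes overlap another gene of the table in position, against 0.0195% of genes without the mark. Lef1 and Erg have no mark. The overlapping genes were weakly expressed, at 0.034% to 3.47% of the mean of the factor. The largest were D130062J21Rik within Bach2, Gm26735 opposite Sox4 and Gm26577 opposite Myb. The libraries were made with dUTP, which marks strand, but whether counting used strand is not given in the sources used here. Gm12158, antisense to Ebf1, had authors' means of 97.0 in Brg1-deleted cells and 91.6 in controls, and Gm12462, antisense to Pax5, of 127 in Brg1-deleted cells and 104 in controls.

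Other genes of the network were taken from 4 lists. Of 19 family relatives of the factors, 16 were listed after deletion, 9 above 0 and 7 below. None of them was called, where 1.47% of all listed genes were. Ets2, an ETS relative, had authors' means of 280 in Brg1-deleted cells and 84.6 in controls, and of 139 in Brg1 shRNA cells and 52.2 in control shRNA cells (unadjusted p = 0.0002, adjusted p = 0.0919) in the authors' deposited table. Tcf7l2, a relative of Lef1, had a log2 fold change of 0.82 (unadjusted p = 0.0265) after deletion and 0.80 (unadjusted p = 0.0034) after knockdown in the authors' deposited table. Mybl2, the cell cycle relative of Myb, had log2 fold changes of -1.12 (unadjusted p = 0.0028) after deletion and -0.47 (unadjusted p = 0.0442) after knockdown in the authors' deposited table. Sox12, a relative of Sox4, had authors' means of 166 in Brg1-deleted cells and 365 in controls. Of the 16 relatives listed after knockdown, 7 lay above 0 and 9 below, with none called, where 0.218% of all listed genes were. Both counts of 0 are near the background and no result about the relatives.

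Of 20 other B lineage transcription factors, 14 lay above 0 after deletion and 16 after knockdown, with medians of 0.27 and 0.11. The only one called was Irf8, a factor of B cell and myeloid development, after deletion. There 1.47% of all listed genes and 2.77% of those with a mean of at least 1000 were called. It had authors' means of 6601 in Brg1-deleted cells and 2730 in controls (adjusted p = 0.0153) and of 6239 in Brg1 shRNA cells and 4007 in control shRNA cells (unadjusted p = 0.0267, not called) in the authors' deposited table. Pou2f2, the octamer factor Oct-2, had a log2 fold change of 1.41 (unadjusted p = 0.05) after deletion, and Ikzf3, the Ikaros relative Aiolos, 0.60 (unadjusted p = 0.1741), in the authors' deposited table. Id2, an inhibitor of E proteins, had a log2 fold change of 1.44 (unadjusted p = 0.0010) after knockdown, and Spib, an ETS factor, 0.84 (unadjusted p = 0.0487), with neither called in the authors' deposited table.

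Genes known to be activated by Ebf1 or Pax5 had a median log2 fold change of 0.34 after deletion, with 9 of 12 above 0, and of 0.13 after knockdown, with 8 of 12 above 0. The only one called was Cd79b, a chain that signals for the antigen receptor, after deletion, where 2.77% of genes with a mean of at least 1000 were called. It had authors' means of 20542 in Brg1-deleted cells and 8045 in controls (adjusted p = 0.0106) in the authors' deposited table. Cd72, a B cell coreceptor, had authors' means of 2740 in Brg1-deleted cells and 1042 in controls. Vpreb1, of the surrogate light chain, lay at -0.63 (unadjusted p = 0.0684) in the authors' deposited table. On knockdown the smallest p-value was that of Cd79b (log2 fold change 0.78, unadjusted p = 0.0053), followed by Cd79a, its partner chain (0.33, unadjusted p = 0.2046), and Blnk, an adaptor of the receptor (0.14, unadjusted p = 0.3704), in the authors' deposited table.

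Genes known to be repressed by Pax5 lay below 0 in 8 of the 9 listed after deletion, with a median of -0.43, and in 4 of 9 after knockdown, with a median of 0.19. None was called. Notch1, the receptor that drives T cell choice, had authors' means of 564 in Brg1-deleted cells and 1086 in controls, and Emb, an adhesion protein, of 140 in Brg1-deleted cells and 313 in controls, each with an unadjusted p of 0.0047 (adjusted p = 0.1716) in the authors' deposited table. In the knockdown experiment Flt3, a receptor of lymphoid progenitors, had the smallest p-value, with authors' means of 6.20 with the Brg1 shRNA and 15.8 with the control shRNA (unadjusted p = 0.0617) in the authors' deposited table. Cd28, a T cell coreceptor, followed with 17.2 with the Brg1 shRNA and 7.58 with the control shRNA. Several genes of this list are also expressed by macrophages. Csf1r, the receptor that defines them, stood at 683 and 186 normalized reads in the Brg1-deleted libraries and at 259 and 913 in the control libraries, so its groups overlap.

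**Figure D5:**
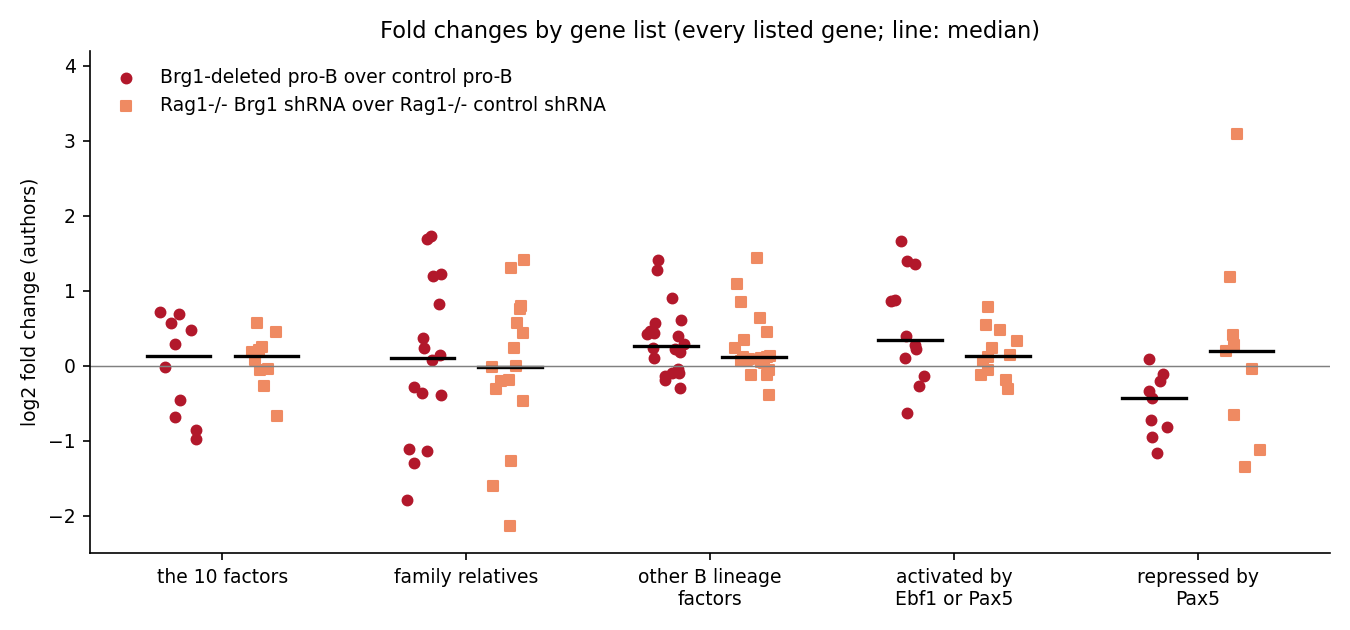
Log2 fold change (y axis, the authors' values) of every listed gene of the 10 factors and of 4 gene lists (x axis) in Brg1-deleted over control pro-B cells (circles) and Rag1-/- Brg1 shRNA over control shRNA cells (squares), with a line at the median. Genes repressed by Pax5 have a median of -0.43 on deletion and 0.19 on knockdown, and the factors 0.14 and 0.13.

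Markers of other blood cells differed between the deletion groups. Of 7 macrophage markers 6 lay below 0 after deletion, with a summed level of 293 per 1000000 listed reads in Brg1-deleted cells and 415 in controls. None of the 7 was called, where 1.47% of all listed genes were. The exception was Adgre1, the F4/80 antigen, listed under its older symbol Emr1, with authors' means of 171 in Brg1-deleted cells and 145 in controls. All 9 markers of neutrophils and their precursors lay below 0, with 86.7 in Brg1-deleted cells and 323 in controls on that scale. Of these 3 were called lower (Prtn3, Ctsg and Elane), where 1.47% of all listed genes were called in either direction. These levels also differed within a group, as for S100a8, a neutrophil protein, at 0.86 and 134 normalized reads in the 2 Brg1-deleted libraries. Of 9 markers of T and innate lymphoid cells 7 lay below 0, with 13.1 in Brg1-deleted cells and 47.9 in controls. Of these 2 were called lower (Thy1 and Lck), against the same 1.47%. After knockdown Lck was higher, with authors' means of 427 with the Brg1 shRNA and 273 with the control shRNA (unadjusted p = 0.0188, DESeq, not called). The other 7 listed then summed to 141.2 with the Brg1 shRNA and 212.8 with the control shRNA, 1 above 0 and 6 below. Cd3e, which defines T cells, had at most 6.05 normalized reads in a Brg1-deleted library, and 0 in the deeper and 10.0 in the shallower control library.

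Erg and Ets1 are also expressed by megakaryocytes and endothelium, whose 4 markers lay above 0 after deletion. Pecam1, an endothelial and leukocyte adhesion protein, gave most of their sum, with authors' means of 1586 in Brg1-deleted cells and 725 in controls (adjusted p = 0.0551, DESeq), and the other 3 summed to 206.5 in Brg1-deleted cells and 181.5 in controls. Mature B cells also hold Bach2, Ets1 and Pax5 transcripts. Among markers of mature B and plasma cells Ms4a1, the B cell surface protein CD20, had authors' means of 3448 in Brg1-deleted cells and 599.7 in controls. This difference was not called (unadjusted p = 0.3063, DESeq). The rest of the list summed to 314.5 in Brg1-deleted cells and 320.4 in controls, with 4 entries above 0 and 1 below. Within that sum Cr2, at its more highly expressed entry, had means of 155 in Brg1-deleted cells and 23.8 in controls (unadjusted p = 0.0157, DESeq). Sdc1 had 125 in Brg1-deleted cells and 273 in controls (unadjusted p = 0.0136, DESeq), and neither was called. Ms4a1 rose in the knockdown experiment, with authors' means of 2351 in Brg1 shRNA cells and 853 in control shRNA cells (adjusted p = 0.0016, DESeq). The rest of the list then summed to 234.7 in Brg1 shRNA cells and 246.6 in control shRNA cells, with 3 entries above 0 and 2 below. That entry of Cr2 had means of 50.5 with the Brg1 shRNA and 17.9 with the control shRNA (unadjusted p = 0.0032, DESeq, not called). Sdc1 had 172 with the Brg1 shRNA and 221 with the control shRNA. The macrophage sums were 37.6 per 1000000 listed reads in Brg1 shRNA cells and 31.2 in control shRNA cells. The neutrophil sums were 21.9 in Brg1 shRNA cells and 24.9 in control shRNA cells. No marker of either list was called, where 0.218% of all listed genes were. Erythroid markers summed to at most 1.95 in any group. The part of other cell types in the values of the 10 factors was not tested. In bulk samples, fewer cells of a type and less RNA per cell cannot be told apart.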

How the data were processed

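Polyadenylated RNA was made into strand-marked (dUTP) libraries of 10 cultured pro-B samples in 4 groups, taken from the sample titles, and the other 16 samples of the series (accessibility and binding) were not analysed here. CASAVA, RSEM and DESeq, with the mm10 build and no versions, are named by the submitters' processing notes. Each table holds, per the file headers, 1 mean per group, which the values show to be a signal in reads divided by size factors by the authors. Per the file headers, the authors also deposited a log2 fold change (depleted over control), its p-value and a Benjamini-Hochberg adjustment of it. The signed fold score deposited by the authors was not used, and exon lengths (other) served only for levels per kb.

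The members and gene lists were chosen with earlier results of these data known. Named genes are the 10 factors, Smarca4, every called list gene, up to 3 more per list by p-value, and the 3 genes nearest to Ebf1 and Pax5. Others (Csf1r, Il7r, Dntt, Cr2, Sdc1, the called markers and genes overlapping a factor) were chosen after their values were seen. List and marker genes were matched by symbol and, through a table of Ensembl IDs, by ID, which found 1 more (Adgre1). A gene that the rule also names is not reported here.

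Calls are those of the authors, since the deposited columns are group means. Each deletion mean, given to 4 decimals, was decomposed into whole reads of its 2 libraries, each read with the weight of its library. The weights were fitted on 8762 genes of the Brg1-deleted and 8701 of the control group, so that the largest residual was 4.9996e-05, inside the rounding half-width of 5.0e-05. Solutions existed for all 19404 genes, and 18430 (95.0%) had only 1. Libraries recovered in this way are called deeper and shallower, since nothing ties them to a replicate number. The 3 libraries of each knockdown group could not be resolved, and their depths are estimates from the weights. A mean-variance trend was used in limma 3.58.1 (R 4.3.3), on log2 of weighted reads plus 0.5, for genes with a single solution and a mean of 1 or more. Recovery and limma were tested on simulated data. Other steps used pandas 2.3.3, numpy 2.4.6, matplotlib 3.10.9 and scipy 1.17.1 in Python 3.11.15. Promoter windows are from RefSeq.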

Additional observations from a re-analysis of the deposited data

How the results depend on the processing

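In both experiments the count of called factors was 0 at an adjusted p of 0.05 and at 0.1, with the adjustment over listed genes only, with a 1.5-fold minimum, for genes of at least 10 per 1000000 reads and for genes without the confounded mark, which leaves Lef1 and Erg alone of the factors. It was also 0 of the 2 resolved factors in limma, with and without the filter on low means and without each library in turn. Limma called 0 of 16852 genes, with 2826 at an unadjusted p under 0.05, but 42 when the control with fewer reads was left out. A group with 1 library left is taken there to vary as the other group does. Erg ranged from -1.12 to -0.83 in log2 fold change when 1 library was left out, with adjusted p-values of 0.223 to 0.388, and Runx1 from -0.57 to -0.34. Of 96 recomputed fold changes of the factors, with other scaling, pseudocounts of 1 or 10, or limma, 94 kept their sign. Many of these could not have turned, so the count is no measure of stability. A pseudocount added to both means cannot change a sign. Recentring took off a median of only -0.0014 on deletion and -0.0028 on knockdown. The blocked and unfiltered limma fits repeat the fold change of the main fit. Rescaling to the same summed mean turned Ebf1 on deletion to 0.013 and Bcl11a on knockdown to 0.0069, both still near 0, which follows from shifts of -0.035 and -0.045 in the log2 ratio of the sums. Among the lists, Irf8 carries the confounded mark and drops out without marked genes, and Ets2 passed after knockdown at an adjusted p of 0.1. With the adjustment over genes of at least 10 per 1000000 reads, 1 family relative passed after knockdown at an adjusted p of 0.05. Fits with a replicate block were added after seeing the data, for both possible pairings of the recovered libraries, since neither the labels nor the tables say which holds. With the deeper library of each group paired, limma called 0 genes and 0 of the 2 resolved factors. With deeper and shallower paired, it called 2901 genes and 2 of the 2, Erg and Runx1. Deviations of the libraries from their group means had a correlation of 0.397 over 16852 genes in that pairing and -0.397 in the other. This is a hint from the data and not from the design, and a pairing picked by it makes p-values too small. In the knockdown experiment no blocked fit could be made and no library left out, as values per library could not be had. The means carry no error of their own, so differences under about the spread of the libraries cannot be seen for the 8 factors without a single solution.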
